A study of Mus musculus with 3 samples.

Results

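The lysosomal cathepsins are the acid proteases that cells keep in their lysosomes, and 10 of their genes (Ctsa, Ctsb, Ctsc, Ctsd, Ctsf, Ctsh, Ctsk, Ctsl, Ctss and Ctsz) were followed here in wild type (WT) mouse embryo fibroblasts (MEFs). They were chosen by name, and all 10 were found among the 21782 genes of the deposited RNA-seq count table. The table holds 1 library of polyA-selected RNA from each of 3 clones of asynchronous WT MEFs, grown from embryos of day 12.5 in medium with 20% serum. The comparison made here is between clones, and with 1 library per clone a clone cannot be told apart from its culture or its library preparation. The labels name the cells embryonic fibroblasts of WT genotype and number the libraries 1 to 3, and the study's methods call them clones.

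Cathepsins are made as inactive proenzymes, receive a mannose 6-phosphate tag that takes them to the lysosome, and become active at its low pH. Most of the family are cysteine proteases related to papain, while CTSD is an aspartic protease and CTSA a serine carboxypeptidase. CTSB, CTSD and CTSL are found in nearly every cell, and CTSL was long known as the major protein that transformed mouse fibroblasts secrete. CTSS is best known from macrophages and other antigen-presenting cells, where it trims the invariant chain of MHC class II molecules, and CTSK from osteoclasts, where it degrades bone collagen.

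The kinship of the cysteine cathepsins can be read in the stretch that codes for their active site. Of the 10 genes, 8 had a single match to it in their GENCODE M21 transcript of longest coding sequence, and Ctsa and Ctsd had none. The 5 stretches below are those of the genes with the largest difference of clone 2 from the other clones in either direction, together with Ctsk, the neighbour of Ctss on chromosome 3. Each is 30 nt of the sense strand, 5' to 3', with the codon of the catalytic cysteine in capitals.
Ctss (exon 5, chr3:95545333-95545362, GRCm38, plus strand): ggttcttgtggtgccTGCtgggctttcagt
Ctsk (exon 5, chr3:95502582-95502611, plus strand): ggccagtgtggttccTGTtgggctttcagc
Ctsl (exon 6, chr13:64367063-64367092, minus strand): ggccagtgcgggtctTGTtgggcgtttagc
Ctsh (exon 6, chr9:90064507-90064536, plus strand): ggggcctgtggcagcTGCtggactttctct
Ctsc (exons 5 and 6, chr7:88302300-88308041 with the intron, plus strand): gaatcttgtggaagcTGCtactcatttgcc
Against the Ctss stretch, 23 of 30 bases were identical in Ctsk, 21 in Ctsh, 18 in Ctsl and 17 in Ctsc. Although the active site is shared, no stretch of 86 nt was shared exactly between the transcripts of any pair of the 10 genes. Such a read without errors could thus be told apart between members. Near matches were not searched, although the study's alignment allowed mismatches.

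Between 22594316 and 25261357 reads were counted on genes per clone. Values are given as counts and as CPM, counts per 1000000 counts after TMM scaling, with factors between 0.984 and 1.02. Each pair of clones differed at 31.7% to 53.0% of the genes tested, and none was close enough to be a repeat of another library. The label of the cells was checked against marker lists. The 20 fibroblast genes summed to 98622 to 126785 CPM per clone, and the highest were Col1a1 and Fn1, at means of 27713 and 27279 CPM. Of the 20 macrophage genes, 18 were in the table, and Adgre1 and Spi1 were not found by symbol. The 18 summed to 450, 2123 and 378 CPM in clones 1, 2 and 3. All 17 of them with at least 10 counts in every clone were at least 1.5-fold higher in clone 2 than in both other clones. Of all genes with such counts, 4.23% were. None of the 18 was at 0 throughout. Lyz2 (lysozyme) was the highest at a mean of 272 CPM, and the ratio of clone 2 to the other clones ran from 3.28 (Cd14) to 7.03 (Tyrobp) over these 17. In contrast, 10 markers of lymphoid cells, granulocytes and mast cells summed to at most 0.282 CPM in any clone, and 5 of them had no count at all.

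All 10 cathepsins were expressed at more than 10 CPM in every clone, and together they took 0.614%, 0.555% and 0.462% of all counts in clones 1, 2 and 3 (0.543% ± 0.0768; SD, n = 3). Ctsd, Ctsb and Ctsl supplied 82.1% ± 0.393 of the cathepsin counts. To compare genes, each CPM was divided by the length of the same GENCODE transcript. Where coding sequences were equally long, the transcript with the most exon bases was taken. For Ctsl it had 6168 nt with 1002 nt coding, for Ctsb 4743 nt with 1017, and for Ctsz 1441 nt with 918. A shorter length would give a higher value per kb and was not tried, so the order depends on this choice. On this scale Ctsd stood highest, at 985 ± 185 CPM per kb (SD, n = 3), above Ctsb at 271 ± 67.9 in every clone and without overlap. Ctsl at 177 ± 53.9, Ctsz at 159 ± 21.3 and Ctsa at 140 ± 25.8 CPM per kb followed, and the ranges of neighbours in this group overlapped, also between Ctsb and Ctsl. A gap then separated Ctsa from the 5 lower genes, which were Ctsh at 35.8 ± 11.1, Ctss at 29.0 ± 28.2, Ctsk at 28.0 ± 6.13, Ctsc at 22.9 ± 12.7 and Ctsf at 17.3 ± 6.78 CPM per kb. None of these 5 was separated from its neighbour by more than the spread between clones, and the place of Ctss depended on the clone.

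**Figure D1:**
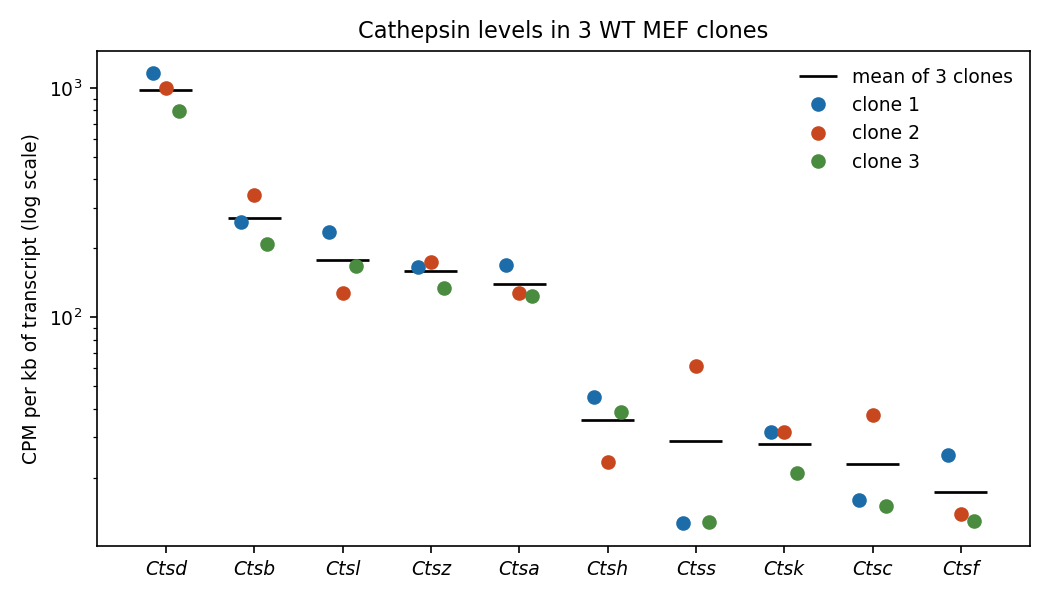
CPM per kb of transcript (log scale) of the 10 cathepsins in each of 3 WT MEF clones (coloured points), with black bars for the mean. Ctsd stands apart at the top in every clone, and Ctss and Ctsc are high in clone 2 (61.5 and 37.5 CPM per kb) and low in clones 1 and 3.

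Per kb, Ctss ranked behind Ctsk in clones 1 and 3 and ahead of it in clone 2. With all annotated exons as the length, 7 of the 10 genes kept their place in the order, and the other 3 changed within the lower group. That length is never shorter than the transcript used, so it does not show the order for shorter transcripts. Some counts are less certain because genes overlap or share sequence. Exact 86-nt stretches shared with a transcript of another gene made up 35.5% of Ctsd (with Gm49369), 26.0% of Ctsl (with Gm47123, Gm49230, Cflar, Atrip or Wdr45b), 14.8% of Ctsb (with Fdft1) and 12.3% of Ctsa (with Pltp and Neurl2). None were found for the other 6, and Gm49369, Gm47123 and Gm49230 were not among the genes counted under these names. The strand setting of the counting is not given in the sources used here, so reads from these parts may have been counted, split or dropped.

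Ctss was the cathepsin that differed most between clones. Its counts were 426, 1880 and 437 in clones 1, 2 and 3, or 17.1, 83.4 and 17.3 CPM. Clone 2 was high and clones 1 and 3 were alike. The ratio of clone 2 to clones 1 and 3 together was 4.84 (95% exact interval 4.46 to 5.25), and the ratio of clone 1 to clone 3 was 0.991 (0.865 to 1.14). Counting error is all that such intervals cover, and without molecular identifiers reads are not independent molecules. A ratio between whole cultures cannot tell more cells of a type apart from more RNA per cell. The macrophage list was high in the same library, as given above, and its part in this result was not tested.

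Ctsc, whose product removes dipeptides and activates the serine proteases of leukocyte granules, went the same way to a smaller degree. Its counts were 993, 2110 and 945 in clones 1, 2 and 3, or 40.0, 93.6 and 37.4 CPM. Again only clone 2 stood apart, at 2.42 times the other clones (2.27 to 2.57), while clone 1 was at 1.07 times clone 3 (0.976 to 1.17).

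The other cathepsins with their highest level in clone 2 were Ctsb and Ctsz, both coding for cysteine proteases that can remove residues from the carboxyl end of a protein. Ctsb had 30772, 36716 and 24978 counts, or 1239, 1628 and 989 CPM, a ratio of 1.46 (1.44 to 1.48) for clone 2. Ctsz had 5953, 5680 and 4894 counts, or 240, 252 and 194 CPM, and its ratio of 1.16 (1.13 to 1.20) was small. For Ctsz, clones 1 and 2 were close, and it was clone 3 that was low.

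Ctsl and Ctsh were lowest in clone 2. Ctsl, an endopeptidase, had 35999, 17826 and 26204 counts, or 1449, 791 and 1037 CPM, so that clone 2 stood at 0.637 (0.626 to 0.647) of the other clones. Ctsh, an aminopeptidase, had 1813, 856 and 1586 counts, or 73.0, 38.0 and 62.8 CPM, at a ratio of 0.560 (0.519 to 0.603). Both genes also differed between the other clones, with clone 1 at 1.40 times clone 3 (1.37 to 1.42) for Ctsl and 1.16 times (1.09 to 1.24) for Ctsh. The summed fibroblast markers were also lowest in clone 2, but at 98622 CPM they were close to the 100402 CPM of clone 3.

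In Ctsf, Ctsa and Ctsd, clone 1 was the highest and clone 3 the lowest. Ctsf, another papain-like protease, had 1235, 620 and 645 counts, or 49.7, 27.5 and 25.5 CPM, and clone 1 stood at 1.95 times clone 3 (1.77 to 2.14). Ctsa, which also protects beta-galactosidase and neuraminidase in the lysosome, had 15400, 10488 and 11357 counts, or 620, 465 and 450 CPM. Ctsd had 61345, 48050 and 42599 counts, or 2469, 2131 and 1687 CPM. For all 3, clone 1 was high, and in Ctsf and Ctsa clones 2 and 3 were close. The ratio of clone 2 to the other clones was 0.733 (0.668 to 0.803) for Ctsf, 0.871 (0.851 to 0.891) for Ctsa and 1.03 (1.02 to 1.04) for Ctsd. Taken against clone 3 alone they were 1.08 (0.963 to 1.20), 1.03 (1.01 to 1.06) and 1.26 (1.25 to 1.28), and against clone 1 alone all 3 were under 1.

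Ctsk had 1186, 1073 and 798 counts, or 47.7, 47.6 and 31.6 CPM, with clones 1 and 2 alike and clone 3 low. The gene lies directly before Ctss on chromosome 3 of GRCm38, on the same strand, with 17423 bp and no annotated gene between them. The neighbours did not keep a fixed ratio, and 2.78, 0.571 and 1.83 counts of Ctsk were found per count of Ctss in clones 1, 2 and 3. Of 7 osteoclast markers, 3 had at least 10 counts in every clone. Acp5, the acid phosphatase of osteoclasts, had 44, 28 and 23 counts, Oscar had 31, 17 and 25, and Mmp9, which other cells also make, had 600, 830 and 610. By counts, Acp5 and Oscar were thus highest in clone 1 and Mmp9 in clone 2. Of these 3, 2 passed the chi-square test between libraries described below, which 62.5% of all genes tested passed. Counts of Acp5 and Oscar were low, and those of Oscar did not settle an order of the clones. Ocstamp, Dcstamp and Calcr had at most 2 counts in any clone and Atp6v0d2 at most 3. The part of osteoclast-type cells in the Ctsk counts was not tested.

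**Figure D2:**
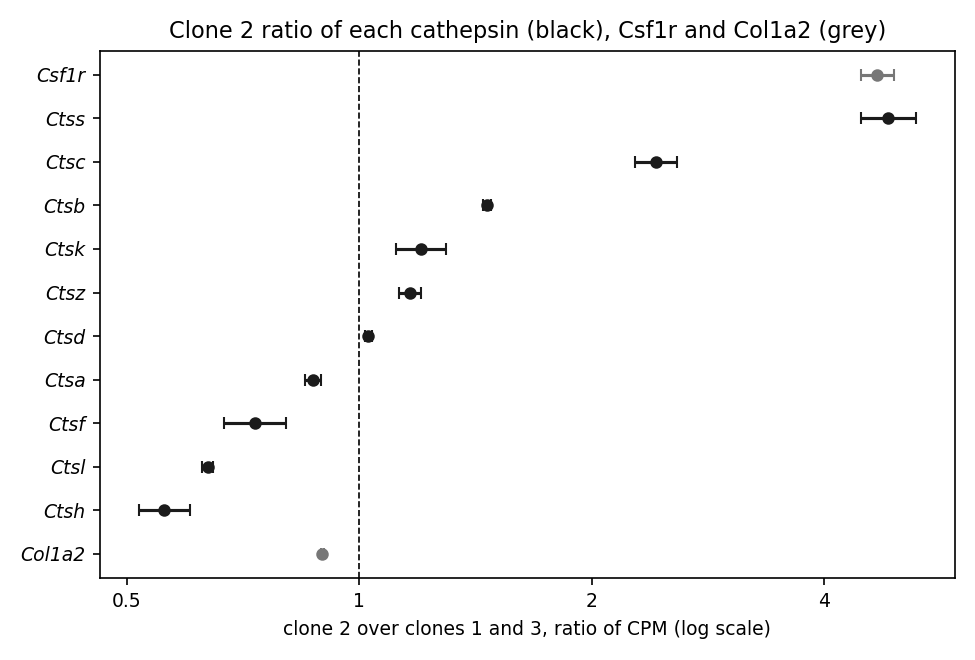
Ratio of CPM in clone 2 to clones 1 and 3 together (log scale) for each cathepsin (black) and for Csf1r and Col1a2 (grey), with bars for the 95% exact interval of counting error. Ctss lies at 4.84 beside Csf1r at 4.68, Ctsc at 2.42, and Ctsh and Ctsl lie below Col1a2 at 0.896.

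All 10 cathepsins differed between libraries in a Pearson chi-square test, with TMM-scaled library sizes as the expectation. The weakest was Ctsk, with a Benjamini-Hochberg adjusted p-value of 9.95e-22. At this depth 62.5% of the 12218 genes tested passed the same test, so passing it says little about cathepsins in particular, and the test compares libraries rather than conditions. Ctss and Ctsc were at least 1.5-fold above both other clones in clone 2, a size reached by 4.23% of the genes tested. Ctsh was at least 1.5-fold below both others (2.38% of the genes tested), and Ctsf in clone 1 was at least 1.5-fold above both others (2.78%). The median difference of clone 2 from the mean of clones 1 and 3 was 0.14 over the 10 cathepsins on the log2(CPM + 1) scale, beside 0.001 over all genes tested, and it ranged from -0.82 in Ctsh to 2.21 in Ctss. The direction of this median depended on the clone compared with, since it was 0.36 without clone 1 and -0.11 without clone 3. Without clone 2, 8 of the 10 still differed between clones 1 and 3, where 45.4% of 12413 genes did. The 2 that did not pass were Ctss, with an adjusted p-value of 0.93, and Ctsc, with 0.239.

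The patterns were then set beside those of macrophage and fibroblast genes. Csf1r, the receptor that keeps macrophages alive, had 1165, 5001 and 1209 counts in clones 1, 2 and 3. Col1a2, a chain of type I collagen, had 417257, 300767 and 328491. A gene's pattern was taken as the deviations of log2(CPM + 1) from its mean over the 3 clones, and likeness as the Euclidean distance between patterns. These deviations were -0.69, 1.48 and -0.84 for the median of the 17 macrophage genes tested and 0.20, -0.06 and -0.09 for the median of the 20 fibroblast genes, a distance of 1.93. Ctss lay 0.122 from the macrophage median and 1.91 from the fibroblast median. Ctsc was 0.815 from the macrophage median and 1.12 from the fibroblast median, so it lay between them. The other 8 were nearer to the fibroblast median, from Ctsa at 0.136 to Ctsh at 0.582. Among all genes tested, 1.98% were nearer to the macrophage median, so nearly every gene fell on the fibroblast side. A place on that side is thus not particular to fibroblast genes. Of the list genes, 17 of the 17 macrophage genes and 0 of the 20 fibroblast genes were nearer to the macrophage median. These list genes made the medians, so their sides were largely fixed in advance. The choice of Csf1r and Col1a2 in place of the lists put the same number of cathepsins, 2 of 10, on the macrophage side.

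**Figure D3:**
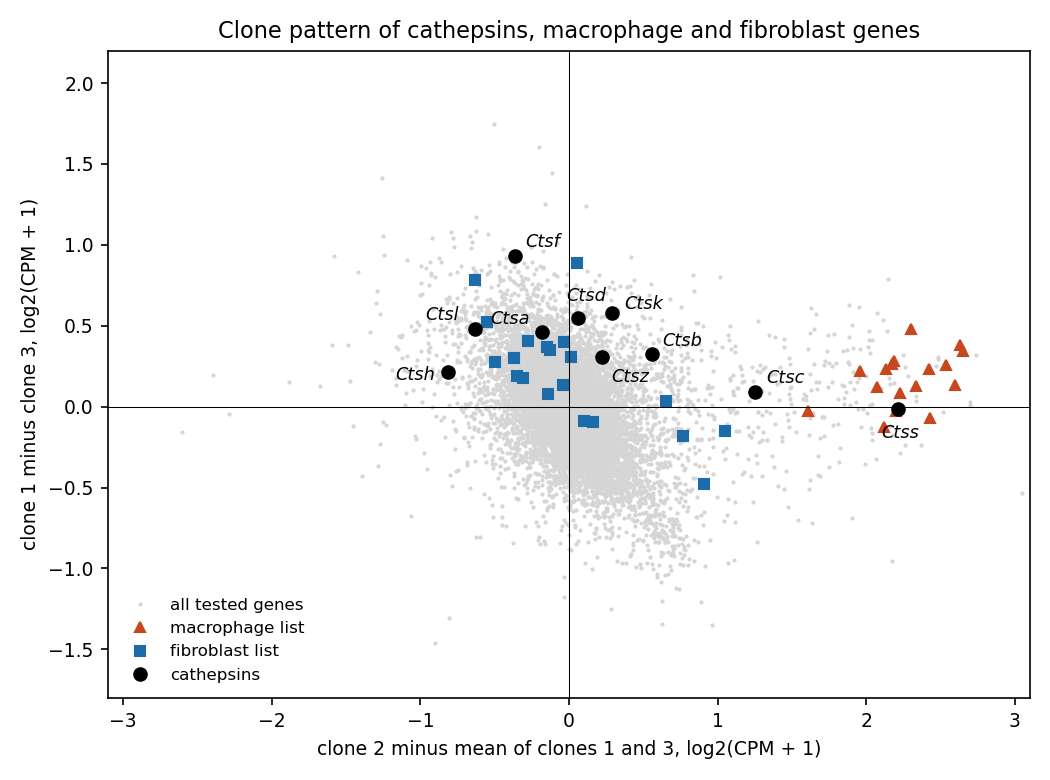
Each point is a gene, placed by its difference of clone 2 from the mean of clones 1 and 3 (horizontal) and of clone 1 from clone 3 (vertical), both in log2(CPM + 1). Ctss falls among the macrophage genes (triangles), Ctsc between them and the fibroblast genes (squares), and the other 8 lie above 0 on the vertical axis, from Ctsh at -0.82 to Ctsb at 0.56 on the horizontal axis.

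Among 8380 other genes averaging 10 CPM or more, the 3 whose pattern was most like that of Ctss were Csf1r at a distance of 0.013, Itgam at 0.071 and Cybb at 0.088. Itgam codes for an integrin chain and Cybb for a subunit of the NADPH oxidase of phagocytes, and they had 321, 1403 and 306 counts and 176, 828 and 197 counts. In all, 15 genes lay within 0.2 of Ctss, and 7 of them were in the macrophage list. Near Ctsc there were 8 genes within that distance, none of them in the macrophage list. The nearest were Igf1, with 230, 495 and 207 counts, Ch25h and Coch. The others had from 42 (Ctsf) to 991 (Ctsa) genes within that distance, and where there were many, as for Ctsa, a likeness to any single gene says less. Nearest to Ctsl were Lpin1, Ltbp2 and Stx1a, nearest to Ctsh were Nyap1, Hoxa5 and Fbln5, and nearest to Ctsf were Per1, Fam20a and Cpeb1. Ltbp2 and Fbln5 code for proteins of the elastic fibres, and had 35727, 17525 and 25467 counts and 29129, 13346 and 25833 counts. For the remaining genes the closest patterns included those of Dopey2, Tmem205 and Gmppa (Ctsa), Wbscr17, Tgfb1 and Man1c1 (Ctsb), Medag, Renbp and Fbxo6 (Ctsd), Arhgef28 and Tppp3 (Ctsk), and Nfkbia, Crlf2 and Fgfr1 (Ctsz).

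The likeness of Ctss to Csf1r can also be read without any scaling, from their counts within a library. Of the summed Ctss and Csf1r counts, Ctss took 26.8% (24.7 to 29.0, Wilson 95%), 27.3% (26.3 to 28.4) and 26.5% (24.5 to 28.7) in clones 1, 2 and 3. The 3 intervals overlapped although the counts of both genes were more than 4 times higher in clone 2. Measured in the same way, Ctsc took 46.0% (43.9 to 48.1), 29.7% (28.6 to 30.7) and 43.9% (41.8 to 46.0), so that clone 2 was lower than the others. The drop was larger for Ctsk, at 50.4%, 17.7% and 39.8%, and for Ctsf, at 51.5%, 11.0% and 34.8%. Such a drop follows for any gene that rose less than Csf1r in clone 2, so it is not particular to cathepsins. Against each of the 17 macrophage genes in turn, the counts of Ctss per count of that gene varied between clones by 1.04-fold to 1.72-fold, with a median of 1.28-fold, and those of Ctsc by 1.42-fold to 3.32-fold, with a median of 2.33-fold. Both sets of ratios use counts of the same 3 libraries and are descriptions of them.

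**Figure D4:**
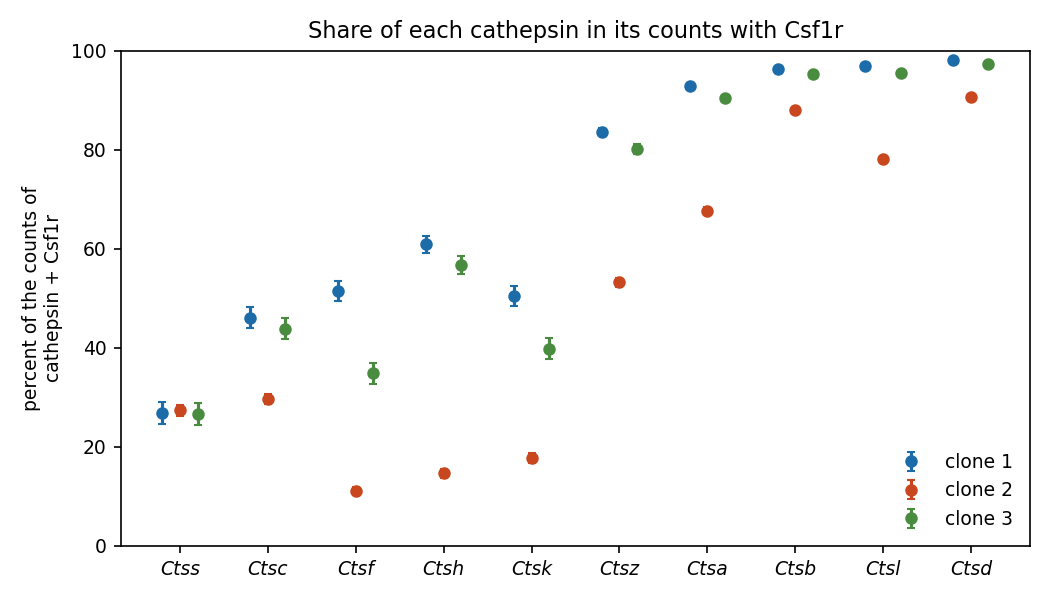
Percent of the counts of a cathepsin and Csf1r together that belong to the cathepsin, in each clone, with 95% Wilson intervals. The share of Ctss stays between 26.5% and 27.3% in all 3 clones, while that of each other cathepsin is lowest in clone 2. Csf1r itself is high in clone 2, so the share of any gene that rose less there drops.

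The promoters of the cathepsins were searched for motifs of factors known from macrophages and from lysosomal genes, chosen with the clone patterns known. GAGGAAGT is bound by PU.1, whose own gene Spi1 was not found by symbol among the genes counted. The E-box CACGTG, best in the form TCACGTGA, is bound by the factors of the MiT/TFE family. RefSeq promoters on GRCm38 (250 bases before to 50 after a transcript start) were used for 8 of the 10 genes (9 promoters), all but Ctsb and Ctsh. On either strand, GAGGAAGT was found in 3.2% of all 32851 promoters and in those of Ctss and Ctsc, and in none of the other 7 promoters of cathepsins. TCACGTGA was found in 0.974% of all promoters and in those of Ctsa and Ctsd. CACGTG, which every TCACGTGA contains, was found in 7.15% of all and in those of Ctsa, Ctsd, Ctsf and Ctsl. The windows show where the matches to GAGGAAGT and 1 match to TCACGTGA in each of Ctsd and Ctsa lie, with ACTTCCTC (the reverse complement of GAGGAAGT) or CACGTG in capitals, reading along the strand of the gene.
Ctss (chr3:95526773-95526802, plus strand, GAGGAAGT on the opposite strand): aatgaaagttcACTTCCTCattgtggatgc
Ctsc (chr7:88277923-88277952, plus strand, GAGGAAGT on the opposite strand): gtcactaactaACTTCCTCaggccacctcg
Ctsd (chr7:142387908-142387937, minus strand): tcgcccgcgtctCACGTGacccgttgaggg
Ctsa (chr2:164833749-164833778, plus strand): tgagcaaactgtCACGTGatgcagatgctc
Counted from the transcript start, these matches began at -2 in Ctss, -151 in Ctsc, -98 in Ctsd and -12 in Ctsa. Ctsa held another TCACGTGA, whose CACGTG began at position 5, and Ctsd another CACGTG at -245. A match of letters is a description of these windows, binding was not measured, and no link between a motif and a clone pattern was tested.

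Other genes of the lysosome were compared in the same way. Of 66 tested genes in 5 lists (other peptidases, glycan and lipid hydrolases, membrane proteins, subunits of the V-ATPase and sorting proteins), 60 passed the chi-square test between libraries, which 62.5% of all genes tested passed. Lgmn was the only one at least 1.5-fold above both other clones in clone 2, Igf2r the only one at least 1.5-fold below both, and Dpp7 the only one with clone 1 at least 1.5-fold above both, sizes that 4.23%, 2.38% and 2.78% of all genes tested reached. Their median difference of clone 2 was -0.08 on the log2(CPM + 1) scale, and it ran from -0.64 to 0.80. The 8 cathepsins other than Ctss and Ctsc, which were left out for their high values, ran from -0.82 to 0.56. Only Ctsh lay below the low end of the 66 genes, and Ctsl, the next lowest cathepsin at -0.63, lay within their range. A range over fewer genes tends to be narrower.

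Lgmn, the asparaginyl endopeptidase that cleaves several cathepsins during their maturation, had 4570, 6733 and 4014 counts in clones 1, 2 and 3, a ratio of 1.74 (1.69 to 1.80) for clone 2. Igf2r, the large receptor for the mannose 6-phosphate tag, had 20434, 11507 and 19572 counts, a ratio of 0.639 (0.626 to 0.653). The smaller receptor M6pr was slightly higher in clone 2, at 1.24 (1.20 to 1.28). Clone 2 was thus high for the cleaving enzyme and low for the large sorting receptor.

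Within the lists, 10 of 15 tested V-ATPase genes, which code for the proton pump that acidifies the lysosome, were lowest in clone 2, as were 34.8% of all genes tested, with differences of clone 2 from -0.44 in Atp6v1d to 0.08 in Atp6v0e on the log2(CPM + 1) scale. Among 29 hydrolases, 18 were highest in clone 1, as were 37.6% of all genes tested, with the clone 2 difference of Gaa the lowest of them (-0.43). Psap, the precursor of the saposins and the highest of them at 1818 CPM, stood at 0.961 (0.950 to 0.972) in clone 2. The 11 membrane genes spanned -0.58 in Ctns to 0.22 in Cln3, with Lamp1 at 1152 CPM and a ratio of 1.01 (0.991 to 1.02). Tfe3 was the highest of the MiT/TFE factors at 50.3 CPM, and Tfeb, Mitf and Tfec had means of 3.81, 2.04 and 0.311 CPM.

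**Figure D5:**
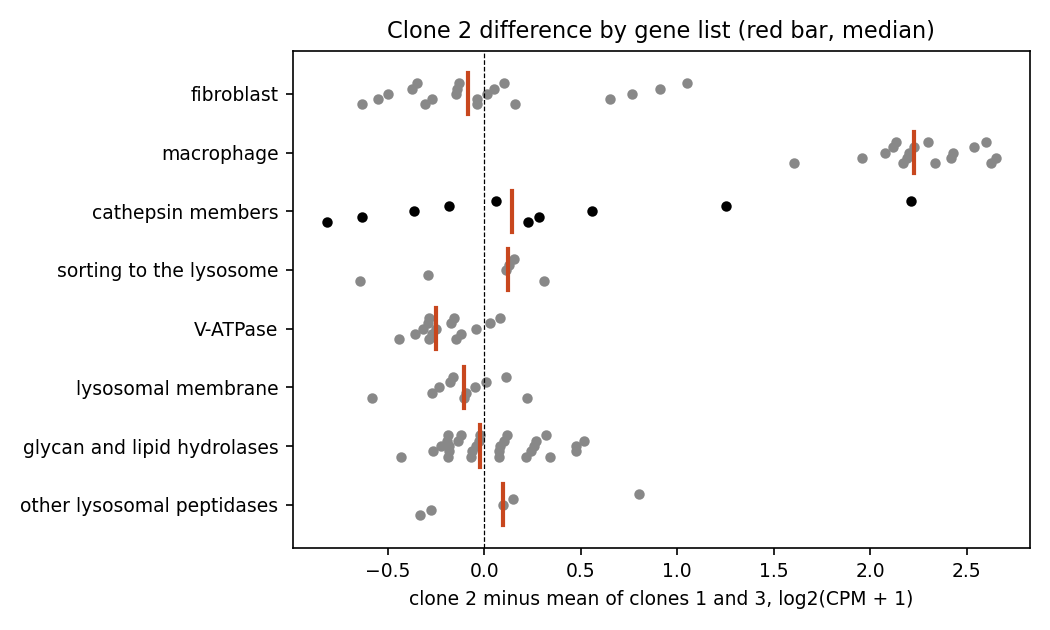
Difference of clone 2 from the mean of clones 1 and 3 in log2(CPM + 1) for the tested genes of each list (points) and its median (red bar). Cathepsins spread from -0.82 to 2.21, with the fibroblast median at -0.09 and the macrophage median at 2.23, and all but Ctss and Ctsc lie at or below 0.56. The genes of the 5 other lysosomal lists lie between -0.64 and 0.80.

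Of 13 cathepsin genes outside the 10, only Ctso and Ctsw had at least 10 counts in every clone. Ctso had 284, 222 and 216 counts, with clone 2 at 0.987 (0.838 to 1.16), and Ctsw, known from cytotoxic lymphocytes, had 81, 72 and 79. Ctse and Cts8 reached 1 count in 2 clones, Ctsg had 1 count in clone 3, and the remaining 8, among them Ctsj, Ctsm, Ctsq and Ctsr of the placental cluster, had none. A count of 0 allows up to 3 counts, or 0.119 to 0.133 CPM depending on the clone.

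Inhibitors and class II genes were smaller in their differences or low in counts. Cst3, the secreted cystatin that inhibits cysteine cathepsins, had 6058, 6510 and 5471 counts with a ratio of 1.25 (1.22 to 1.29) for clone 2, and the cytosolic Cstb had 2305, 1584 and 1907 counts with a ratio of 0.836 (0.788 to 0.886). Of the class II genes, Cd74, which codes for the invariant chain that CTSS cleaves, had 16, 33 and 16 counts, with clone 2 at 2.29 (1.37 to 3.85), and H2-Ab1 had 3, 1 and 2. H2-DMa went the other way, with 123, 57 and 90 counts and a ratio of 0.595 (0.436 to 0.800). Transcripts of MHC class II were few in every clone, also in the one with the high Ctss.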

How the data were processed

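The data are 3 RNA-seq libraries of WT MEFs, 1 per clone. The authors deposited raw counts of reads per gene. Per their methods, 86-nt reads were aligned with TopHat and counted on mm10 genes with HTSeq. The submitters' processing notes list TopHat2 (2.0.0), SAMtools (0.1.16), Bowtie (0.12.7) and mm9 instead of mm10. The HTSeq version, annotation and strand setting are not given in the sources used here. Gene positions and lengths come from GENCODE M21 (GRCm38), matched by symbol. Whether the build of the counting changed any count was not tested.

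CPM used TMM factors of edgeR 4.0.16 (R 4.3.3). Genes that reached 10 counts in each clone were tested with a Pearson chi-square test (2 degrees of freedom, Benjamini-Hochberg adjusted p-value under 0.05). It was checked on simulated counts that held counting error only, as the test assumes. That check does not cover any further spread between libraries. No model with a spread between replicates can be fitted to a clone with 1 library, and the p-values cover counting error only. Total counts were 22594316 to 25261357, and 3 counts are 0.119 to 0.133 CPM. Differences were taken on the log2(CPM + 1) scale, which understates changes of low genes. Alternatives were DESeq2 1.42.0 size factors, total counts, other count filters, thinned counts, a pseudocount of 0.25, all exons as length, and leaving out each clone.

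The members, lists and tests were chosen with earlier results of these data known. Named genes are the 10 cathepsins, Csf1r, Col1a2, the 3 other genes of 10 CPM or more on average nearest to each cathepsin in pattern, the other cathepsins with a count, and from each list the highest gene and those with the largest and smallest clone 2 difference (some are not reported here). M6pr, Tfeb, Mitf, Tfec, Dpp7, Cstb, H2-Ab1, Acp5 and the osteoclast genes near 0 were named after their values were seen. Lists of endothelial, epithelial, trophoblast and proliferation genes were fixed too.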

Additional observations from a re-analysis of the deposited data

How the results depend on the processing

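Under DESeq2 size factors, total counts, thinned counts and a pseudocount of 0.25, the number of cathepsins that differed between libraries (10), that were at least 1.5-fold higher (2) or lower (1) in clone 2, and that were nearer to macrophage genes (2) was the same wherever it was computed. Leaving out a clone changed more. Without replicates 1, 2 or 3, 8 or 9 of the 10 differed, where 31.7%, 45.4% and 53.0% of all genes tested did. The number at least 1.5-fold higher in clone 2 was 4 against clone 3 alone and 2 against clone 1 alone, and the number lower was 1 and 3. The share of all genes that reached these sizes against 1 clone alone is not given here. Whether these numbers are unusual for cathepsins is thus not known. The number nearer to macrophage genes was 2 or 3, and the median difference of clone 2 ranged from -0.11 to 0.36. The log2(CPM + 1) difference of clone 2 changed sign with the clone left out for 4 genes. Without clone 3 and without clone 1 it was -0.41 and 0.049 for Ctsa, -0.83 and 0.10 for Ctsf, -0.21 and 0.34 for Ctsd, and -0.0045 and 0.58 for Ctsk. The share of all genes at least 1.5-fold higher in clone 2 was 8.19% with no filter and 1.78% at 100 counts or more in every clone. These settings differ from the reported one only in the clone or the genes left out. Since there is 1 library per clone, no difference between clones has a replicate check.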

Other observations

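The lists of other cell types gave values that belong to no comparison above. Of the endothelial list, Emcn had 307, 4 and 242 counts in clones 1, 2 and 3, a ratio of 0.0162 (0.0044 to 0.0417) for clone 2, while Kdr had 163, 214 and 314 and Cdh5 4, 6 and 2. Of the epithelial list, Krt18 had 69, 67 and 134 counts and Cdh1 3, 4 and 5. The trophoblast list summed to at most 0.356 CPM in any clone. The proliferation list summed to 368, 723 and 609 CPM. All 6 of its genes were highest in clone 2, as were 35.2% of all genes tested.

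The fibroblast list was itself not of 1 pattern. Col6a1, Col6a2, Pdgfra and Thy1 were at least 1.5-fold above both other clones in clone 2, as were 4.23% of all genes tested. The ratio of clone 2 to the other clones was 2.07 (2.03 to 2.11) for Col6a2, whereas Fn1 stood at 0.671 (0.669 to 0.674) and Postn at 0.705 (0.695 to 0.715). By this ratio, the cathepsins nearer to the fibroblast median ran from Ctsh at 0.560 to Ctsb at 1.46. The fibroblast genes ran from Lum at 0.470 to Col6a2. On the log2(CPM + 1) difference from the mean of clones 1 and 3, however, Ctsh at -0.82 lay below the lowest fibroblast gene, at -0.63. No fibroblast gene was at least 1.5-fold below both other clones in clone 2, as Ctsh was. Which cells carry the Ctsb and Ctsc excess of clone 2 was not tested.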
